A study of Homo sapiens with 8 samples.

Results

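Primary granule proteins are described here at the RNA level, in 10 genes: MPO, ELANE, PRTN3, AZU1, CTSG, LYZ, SRGN, CFD, CD63 and SERPINB1. They were taken by name, from the rows of a transcript count table whose identifier belongs to one of them in GENCODE version 44, and the rows of a gene were summed. All 10 were found among the 62639 genes of the table, with 32 of the 55736 transcripts that had a count. The study asked what loss of the splicing factor PTBP1 does to leukemia cells. MOLM-13, an established human acute myeloid leukemia line, carried a lentiviral, doxycycline-inducible shRNA against PTBP1 (shPTBP1, genotype PTBP1 KD) or a scrambled one (shSCR, called shControl in the sample labels, genotype WT). Both lines received doxycycline for 9 days and expressed mCherry and a truncated nerve growth factor receptor as reporters. RNA of 4 biological replicates of each group was sequenced as full-length cDNA on nanopores. A single shRNA stands for each group, so an effect of PTBP1 loss and one of the shRNA itself cannot be told apart.

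Primary, or azurophil, granules are the first granules that a developing neutrophil makes, at the promyelocyte stage. They store myeloperoxidase, the serine proteases of neutrophils and lysozyme, packed on the proteoglycan serglycin inside a membrane that carries CD63. The serine proteases elastase (ELANE), proteinase 3 (PRTN3), azurocidin (AZU1, which has lost its protease activity) and complement factor D (CFD, adipsin) are encoded side by side on chromosome 19, and cathepsin G (CTSG) on chromosome 14.

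The libraries held 1528449 to 1613342 counts, with 12322 to 12589 genes detected. PTBP1 itself had 10, 15, 13 and 23 counts in shPTBP1 replicates 1 to 4 and 65, 90, 64 and 78 in shSCR, a log2 change of -2.26 (SE 0.22, adjusted p by edgeR = 7.18e-05). Among markers of the myeloid line, CSF1R (-0.97) and CD4 (-0.47) were lower and CD68 (0.36) was higher in shPTBP1 on the log2 scale. Of the 12 markers, 4 did not reach the count minimum of the test and 5 were tested and not called. Where edgeR called 3 of this list, DESeq2 called 2, and 5.54% of all genes tested were called by edgeR in either direction. Without 1 library at a time, the call of CD4 held in 8 of 8 fits, that of CD68 in 5 and that of CSF1R in 1. SPI1, which encodes the myeloid factor PU.1, had 1 count in the whole series and CSF2RA none. Such low values for myeloid genes may come from the counting of reads upstream, which cannot be checked in a count table, and a value at or near 0 here does not show that a gene is silent. Of the markers of other blood lineages, all 6 of T and NK cells were at 0. The summed level of the 8 erythroid markers was at most 0.661 CPM (counts scaled to the normalized library size) in shPTBP1 and 0.667 in shSCR. The 5 megakaryocyte markers reached at most 0.661 and 2.55 CPM, and the 5 B cell markers 3.95 and 6.0 CPM.

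In shPTBP1 the serine protease genes PRTN3 and CTSG and the proteoglycan gene SRGN rose, by 1.36-fold, 1.25-fold and 1.27-fold, and CFD fell to a level 2.72-fold lower than in shSCR. The genes of elastase, azurocidin, myeloperoxidase, lysozyme, CD63 and the elastase inhibitor SERPINB1 were not called. All 10 genes reached the count minimum. At a Benjamini-Hochberg adjusted p under 0.05 in the quasi-likelihood test of edgeR, 3 of 10 were higher, where 2.36% of the 7597 genes tested were higher, and 1 of 10 was lower, where 3.19% were lower. The shares over all genes were not matched for level. SRGN, CTSG and PRTN3 held ranks 8, 43 and 46 of all genes by CPM in shSCR, and smaller changes can be called in genes with many counts. Log2 fold changes had a median of 0.13 over the 10, with 8 above 0, and of -0.00014 over all genes tested. No overlap between groups was seen in 5 of the 10, against 12.7% of the genes tested. RNA per cell and the share of cells that express a gene cannot be told apart in these bulk libraries.

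The levels of the 10 genes spanned 3 orders of magnitude. Divided by transcript length, the mean levels in shSCR were 7246 CPM per kb for SRGN, 4008 for AZU1, 2761 for CTSG, 2649 for PRTN3, 1624 for CD63, 818 for ELANE, 184 for LYZ, 180 for CFD, 12.9 for SERPINB1 and 3.42 for MPO. Whether counts of full-length cDNA reads grow with transcript length was not tested. The division lowers long transcripts, such as that of MPO, relative to short ones. By mean CPM without the division, the order of the 10 genes was the same. Per kilobase, CTSG and PRTN3 overlapped between shSCR libraries, and so did LYZ and CFD, while the other neighbours in that order did not overlap. By CPM in shSCR, LYZ (247 to 307) and CFD (146 to 241) did not overlap. MPO, which encodes the enzyme for which azurophil granules are stained, was thus the lowest of the 10 as counted, with or without the division. By CPM, SRGN held rank 8 of all genes in shSCR and rank 4 in shPTBP1, and CFD held rank 886 and rank 2130. The 10 genes took 2.05% ± 0.0529 of all counts in shSCR and 2.39% ± 0.0681 in shPTBP1 (SD, n = 4). Without SRGN these shares were 1.17% ± 0.0467 and 1.30% ± 0.0545.

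**Figure D1:**
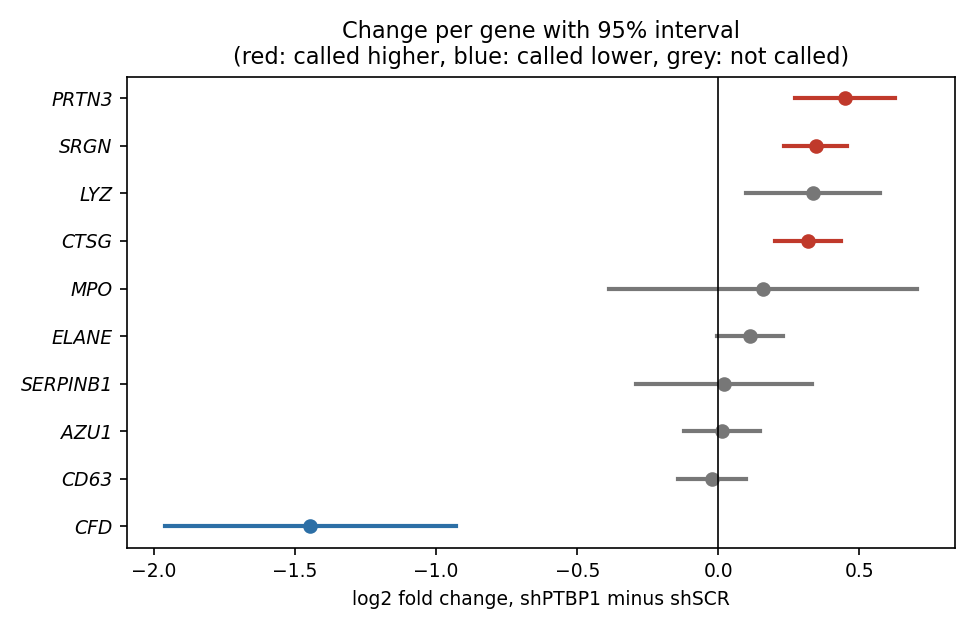
Log2 fold change, shPTBP1 minus shSCR, of each of the 10 genes with its 95% interval, red for called higher, blue for called lower and grey for not called. CFD stands at -1.45 and PRTN3, SRGN and CTSG between 0.32 and 0.45, and the interval of LYZ lies above 0 although the gene was not called.

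Promoters are shown for the proteases that differ in response (PRTN3, CTSG and CFD) and for AZU1, the neighbour of PRTN3 that was not called. RefSeq promoters, which run from 250 bases before the start of a gene to 50 bases after it in GRCh38.p14, were matched by symbol for 6 of the 10 genes. MPO, ELANE, LYZ and SRGN had no entry. Each is printed 5′ to 3′ on the strand of its gene, and capitals mark letters found on either strand for PU.1 (GAGGAA), MYB (CAACNG), RUNX (TGTGGT or TGCGGT, and in a looser form TGNGGT, which contains both), C/EBP (TTNCNNAA) and the TATA box (TATAA).
PRTN3, chr19:840749-841048, plus strand: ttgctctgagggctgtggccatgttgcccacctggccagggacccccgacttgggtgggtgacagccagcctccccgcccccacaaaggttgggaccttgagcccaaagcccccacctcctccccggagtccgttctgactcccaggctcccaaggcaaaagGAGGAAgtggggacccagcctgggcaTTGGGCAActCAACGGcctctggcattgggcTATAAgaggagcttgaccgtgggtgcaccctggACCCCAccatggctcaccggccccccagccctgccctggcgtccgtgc
AZU1, chr19:827587-827886, plus strand: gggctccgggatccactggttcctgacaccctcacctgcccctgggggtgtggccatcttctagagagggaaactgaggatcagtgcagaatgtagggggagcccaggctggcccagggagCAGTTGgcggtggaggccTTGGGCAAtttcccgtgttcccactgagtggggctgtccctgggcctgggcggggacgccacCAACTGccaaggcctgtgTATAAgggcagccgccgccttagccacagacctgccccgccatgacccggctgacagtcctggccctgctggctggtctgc
CTSG, chr14:24576201-24576500, minus strand: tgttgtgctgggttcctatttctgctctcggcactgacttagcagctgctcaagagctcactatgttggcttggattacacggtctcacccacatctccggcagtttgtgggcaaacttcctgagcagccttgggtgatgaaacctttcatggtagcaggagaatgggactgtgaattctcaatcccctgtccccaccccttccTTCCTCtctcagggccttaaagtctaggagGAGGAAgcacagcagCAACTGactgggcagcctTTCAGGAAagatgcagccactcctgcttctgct
CFD, chr19:859414-859713, plus strand: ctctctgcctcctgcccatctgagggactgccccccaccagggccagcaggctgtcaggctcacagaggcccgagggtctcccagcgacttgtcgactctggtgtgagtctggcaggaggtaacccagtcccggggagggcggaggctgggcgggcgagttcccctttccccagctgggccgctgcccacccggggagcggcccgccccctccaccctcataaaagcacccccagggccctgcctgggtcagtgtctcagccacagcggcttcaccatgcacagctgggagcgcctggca

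PRTN3 held GAGGAA at -88, counted from the start of the gene, CAACGG at -52, the C/EBP letters at -62 and TATAA at -31. AZU1 held CAACNG letters at -129 and -49, the C/EBP letters at -111 and TATAA at -31. In CTSG the PU.1 letters stood at -46 and -16, the MYB letters from -1 and the C/EBP letters at 18. The CFD window held none of the letters searched, which says only that they are not in this window. Of 35116 promoters of this length, 27.9% held GAGGAA, 32.9% CAACNG, 36.8% TTNCNNAA and 20.4% TATAA. The RUNX letters were first searched as TGNGGT, which 43.2% of promoters held, with 1 match in these 4 windows, at 3 to 8 in PRTN3. After that match had been seen they were narrowed to TGTGGT or TGCGGT, which 19.6% of promoters held and none of the 4. All motifs were chosen after these sequences had been looked at.

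SRGN encodes serglycin, the proteoglycan core on which the granule proteases are stored. Its counts were 16732, 17574, 17246 and 17472 in shPTBP1 replicates 1 to 4 and 13806, 13005, 14068 and 14137 in shSCR. Every shPTBP1 library lay above every shSCR library. The mean level was 11184 ± 435 CPM against 8804 ± 510 (SD, n = 4), a log2 change of 0.35 (SE 0.05, 95% interval 0.23 to 0.46, adjusted p by edgeR = 0.00213).

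CTSG encodes cathepsin G, a protease with chymotrypsin-like specificity. It had 5156, 5253, 5198 and 5298 counts in shPTBP1 and 4235, 4226, 4451 and 4073 in shSCR, and the groups did not overlap. The shPTBP1 libraries stood closer together, at 3387 ± 89.1 CPM against 2719 ± 171 (SD, n = 4). The log2 fold change was 0.32 (SE 0.05, 95% interval 0.20 to 0.43, adjusted p by edgeR = 0.00486).

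PRTN3, the autoantigen of a form of vasculitis, had 5227, 6080, 5143 and 5569 counts in shPTBP1 and 3701, 4430, 3697 and 4523 in shSCR. Replicates 2 and 4 of both groups were the higher ones, and the lowest shPTBP1 library was still above the highest shSCR library. At 3569 ± 318 against 2616 ± 296 CPM (SD, n = 4), the log2 fold change was 0.45 (SE 0.08, 95% interval 0.27 to 0.62, adjusted p by edgeR = 0.00753).

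CFD encodes the protease that starts the alternative complement pathway by cleaving factor B. Its counts were 80, 72, 109 and 179 in shPTBP1 and 238, 379, 233 and 364 in shSCR. The groups did not overlap, and shPTBP1 replicate 4 was the highest of its group. The level was 71.1 ± 30.9 CPM against 194 ± 50.2 (SD, n = 4), a log2 change of -1.45 (SE 0.24, 95% interval -1.96 to -0.93, adjusted p by edgeR = 0.00387). The library with the most CFD in shPTBP1, at 115 CPM, also had the most PTBP1 of its group, at 14.7 CPM, and a relation between them was not tested. Leaving out 1 library at a time gave log2 fold changes of -1.78 to -1.30.

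ELANE, the gene of neutrophil elastase, had 1387, 1451, 1337 and 1421 counts in shPTBP1 and 1339, 1272, 1290 and 1345 in shSCR. On the normalized scale every shPTBP1 library was above every shSCR library, at 907 ± 37.7 against 839 ± 26.7 CPM (SD, n = 4). The difference was small, however, with a log2 change of 0.11 (SE 0.05, 95% interval -0.01 to 0.23, adjusted p by edgeR = 0.286).

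LYZ, the gene of lysozyme, which cleaves bacterial cell walls, had 446, 499, 517 and 668 counts in shPTBP1 and 402, 416, 461 and 429 in shSCR. Its groups overlapped, with shPTBP1 replicate 4 well above the rest. The log2 fold change was 0.33 (SE 0.11, 95% interval 0.10 to 0.57, adjusted p by edgeR = 0.103). It passed the threshold only with no filter on low counts (adjusted p = 0.0280) and without shPTBP1 replicate 1 (adjusted p = 0.0354), and the range over the other 13 settings was 0.0671 to 0.265.

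AZU1 encodes azurocidin, an antimicrobial protein that also attracts monocytes. It had 5709, 6345, 5458 and 5243 counts in shPTBP1 and 5931, 5767, 5375 and 5812 in shSCR, and the groups overlapped. The log2 fold change was 0.01 (95% interval -0.12 to 0.15, adjusted p by edgeR = 0.946), an interval that leaves out a change as large as that estimated for PRTN3.

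CD63, a tetraspanin of the granule membrane that reaches the cell surface when granules are released, had 2147, 2164, 2039 and 2129 counts in shPTBP1 and 2107, 2315, 2177 and 2118 in shSCR. The log2 fold change was -0.02 (95% interval -0.14 to 0.10, adjusted p by edgeR = 0.881). SERPINB1, a cytosolic inhibitor of elastase, cathepsin G and proteinase 3, had 48, 55, 47 and 50 counts against 62, 44, 43 and 51. Its log2 fold change was 0.02 (95% interval -0.29 to 0.33, adjusted p by edgeR = 0.966).

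MPO, which makes hypochlorous acid from hydrogen peroxide and chloride, had 18, 16, 17 and 25 counts in shPTBP1 and 23, 12, 15 and 19 in shSCR. At this depth the log2 fold change of 0.16 had a 95% interval of -0.39 to 0.70 (adjusted p by edgeR = 0.803), so that a change of the size seen in SRGN, CTSG or PRTN3 was not detectable.

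The chromosome 19 genes lie in a row on the plus strand, just downstream of the gene that was knocked down. In GENCODE version 44 on GRCh38, PTBP1 is at chr19:797075-812327, AZU1 at chr19:825097-832018, PRTN3 at chr19:840999-848175, ELANE at chr19:851014-856247 and CFD at chr19:859453-867884. Direction did not follow the row: PRTN3 rose and CFD fell, with ELANE between them and AZU1 before them not called. The remaining tested gene within 100 kb of the row, ARID3A, had 103, 68, 80 and 0 counts in shPTBP1 and 0, 91, 0 and 92 in shSCR, and was not called (log2 fold change 0.47, SE 0.86, adjusted p by edgeR = 0.829).

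**Figure D2:**
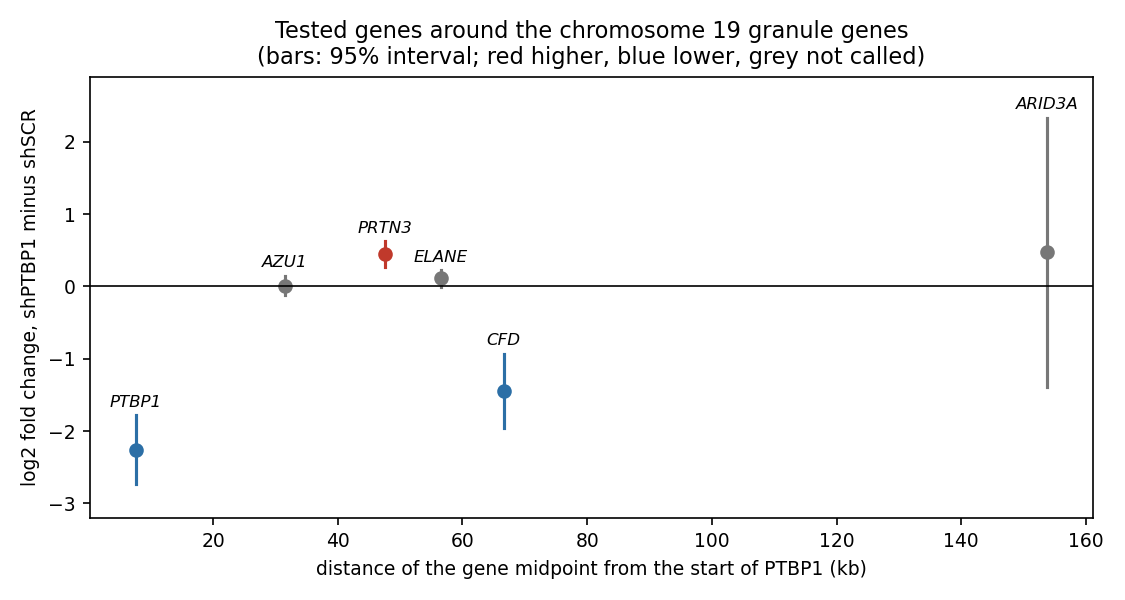
Log2 fold change, shPTBP1 minus shSCR, with 95% interval, of the tested genes against the distance of their midpoint from the start of PTBP1 in kb. PTBP1 (-2.26) and CFD (-1.45) are lower, PRTN3 (0.45) is higher, and AZU1, ELANE and ARID3A are not called.

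Ratios of neighbouring genes within a library do not depend on its scaling, and they are given as a description since the pairs were chosen after the counts were seen. PRTN3 counts per AZU1 count were 0.916, 0.958, 0.942 and 1.06 in shPTBP1 and 0.624, 0.768, 0.688 and 0.778 in shSCR. PRTN3 counts per ELANE count were 3.93 ± 0.183 against 3.12 ± 0.357 (SD, n = 4). CFD counts per ELANE count were 0.0577, 0.0496, 0.0815 and 0.126 in shPTBP1 and 0.178, 0.298, 0.181 and 0.271 in shSCR. None of these ratios overlapped between the groups. PRTN3 and CFD had already been seen to lie apart between the groups, so the lack of overlap adds no support to their calls.

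No change in isoform shares was called. In the test of isoform usage, 17 isoforms of 7 of the genes could be tested, and diffSpliceDGE of edgeR called 0 of them, a number too small to be read against the background. A call needed an adjusted p below 0.05 and a shift of at least 10 percentage points, which 1.12% of 5464 isoforms met, and 1.78% met the first of these alone. None had an unadjusted p under 0.05, and the largest change in a mean share was -4.27 points, in CFD-203. With diffSplice of limma, SRGN-201 and SRGN-202 had an adjusted p of 0.0356 with a change of 0.297 points. SRGN-202, a transcript with no coding sequence assigned, had 91, 97, 100 and 121 counts in shPTBP1 and 98, 61, 0 and 0 in shSCR, so the shift is that of shSCR replicates 3 and 4. MPO and LYZ each had counts on a single isoform, and SERPINB1 had 1 count outside SERPINB1-201, so none of these was tested.

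CFD-201, CFD-202 and CFD-203 each fell as levels, and the other CFD isoforms had too few counts to be tested. Among the latter, CFD-205 had 5, 3, 5 and 3 counts in shPTBP1 and 1, 11, 7 and 8 in shSCR, and its groups overlapped. CFD-203, which begins at an upstream first exon, made up 39.5% ± 8.66 of CFD counts in shPTBP1 and 43.8% ± 4.01 in shSCR, and CFD-201 made up 41.8% ± 6.51 and 38.9% ± 4.36 (SD, n = 4). The share of CFD-203 ran from 27.5% to 48.04% within shPTBP1, a spread in which a shift of a few points was not detectable. As levels, CFD-201, CFD-202 and CFD-203 had log2 fold changes of -1.38, -1.47 and -1.54 (adjusted p by edgeR = 0.00189, 0.00306 and 0.0146). The window printed for CFD is that of CFD-201 and CFD-202, which start 211 bases downstream of CFD-203.

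CTSG was counted on a spliced form, CTSG-201, and on CTSG-202, which keeps an intron of 454 bases at chr14:24574811-24575264. The ends of that intron are printed to show its splice sites, with the first and last 2 intron bases in capitals.
5′ end, chr14:24575245-24575274, minus strand: gctggggaagGTgaggagctaaggaacttc
3′ end, chr14:24574801-24574860, minus strand: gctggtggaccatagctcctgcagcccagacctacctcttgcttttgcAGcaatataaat
CTSG-202 took 14.5%, 17.0%, 17.1% and 15.6% of CTSG counts in shPTBP1 and 14.8%, 17.6%, 13.1% and 15.7% in shSCR, and the groups overlapped. Both forms rose as levels, by 0.30 for CTSG-201 and 0.38 for CTSG-202 on the log2 scale (adjusted p by edgeR = 0.00735 and 0.0179). Of the last 50 bases of the intron, 60% were pyrimidines, against 43.4% of the whole intron. No other introns were set beside it, and binding of PTBP1 was not tested.

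CD63 was counted mainly on CD63-209, a transcript annotated as a target of nonsense-mediated decay, with 83.5% ± 0.268 of its counts in shPTBP1 and 83.3% ± 0.660 in shSCR (SD, n = 4). Among coding forms, CD63-214 took 7.65% ± 0.696 and 7.97% ± 0.323, and CD63-201 took 6.37% ± 0.662 and 6.64% ± 0.352. CD63-209 and CD63-201 are annotated with different ends, at lengths of 829 and 1023 bases. In addition, 1 exon of CD63-209 is annotated to start 1 base later than in CD63-201. The window below runs from 25 intron bases into the exon as CD63-201 has it, and the capital is the base that CD63-209 lacks.
CD63 acceptor, chr12:55726940-55726989, minus strand: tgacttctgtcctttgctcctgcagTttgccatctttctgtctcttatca
In CD63-201 the intron ends in AG, as most human introns do, and in CD63-209 it ends in GT. Which of the forms the reads carry cannot be told from counts, so the 83.5% may reflect how reads were assigned upstream and not how CD63 is spliced, and this was not tested.

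**Figure D3:**
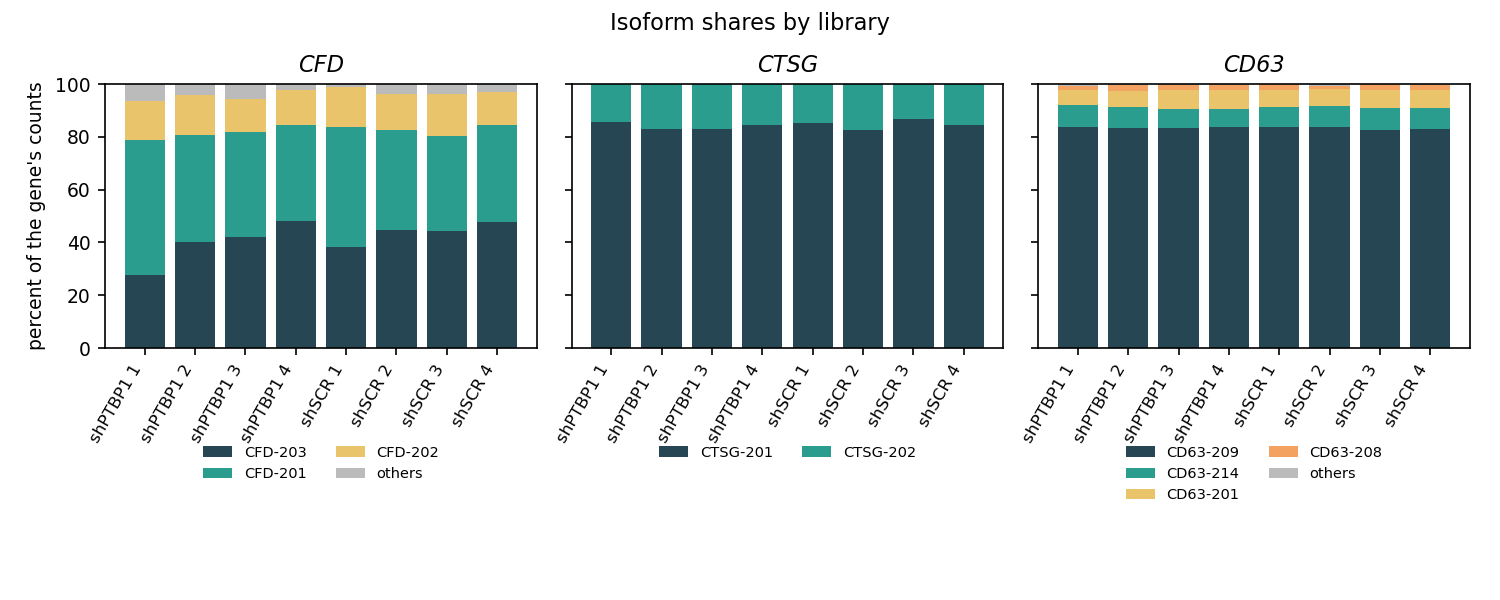
Share of each isoform (percent of the counts of its gene) in the 8 libraries for CFD, CTSG and CD63. CD63-209 holds 83.5% in shPTBP1 and 83.3% in shSCR, CTSG-202 holds 16.0% and 15.3%, and the CFD shares vary most, with CFD-203 at 27.5% in shPTBP1 replicate 1.

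Genes that act with the granule proteins were read from 12 lists of 140 further genes, of which 76 were tested. Of these, 4 were lower and 4 were higher (10.5%, where 5.54% of all genes tested were called in either direction). The lists are given by their counts.

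Of the lysosomal hydrolases that azurophil granules also hold, most were not called, and those called were lower. Of 15 genes 13 were tested, with a median log2 fold change of -0.22. Of the 13, 2 were lower and 0 were higher, where 3.19% and 2.36% of all genes tested were lower and higher. With edgeR 4 had an unadjusted p under 0.05, and DESeq2 also called 2. FUCA1, a fucosidase, had 59, 42, 60 and 60 counts in shPTBP1 and 174, 198, 163 and 194 in shSCR, a log2 change of -1.70 (SE 0.12, adjusted p by edgeR = 3.71e-06). CTSB and CTSD, the most abundant of the list, had log2 fold changes of -0.22 and -0.16 and were not called.

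The gene of the enzyme that activates the granule proteases was called higher. CTSC, the dipeptidyl peptidase that removes their propeptide, had 450, 419, 450 and 471 counts in shPTBP1 and 363, 330, 382 and 358 in shSCR, a log2 change of 0.34 (SE 0.07, adjusted p by edgeR = 0.0166). The call held in 6 of 8 fits without 1 library and was lost without shPTBP1 replicate 3 (adjusted p by edgeR = 0.0570) or replicate 4 (0.0538). LYST, a regulator of granule size, changed by 0.48 (SE 0.11, adjusted p by edgeR = 0.0243), and this call held in 3 of 8 fits, lost without shPTBP1 replicates 1, 2 or 3 or shSCR replicates 3 or 4 (adjusted p by edgeR 0.0553 to 0.0834). The other 10 tested of the 16 genes for activation and sorting were not called, STXBP2 among them (-0.34, adjusted p by edgeR = 0.147).

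Of 11 protease inhibitors 4 were tested and 1 was called. SERPINB10 had 46, 45, 39 and 36 counts in shPTBP1 and 17, 28, 15 and 25 in shSCR, a log2 change of 0.98 (SE 0.21, adjusted p by edgeR = 0.0183). DESeq2 did not call it, and the call was lost without shPTBP1 replicate 2 (adjusted p by edgeR = 0.0588). SLPI, an elastase inhibitor of secretions, was the most abundant, at 246 ± 41.3 against 196 ± 24.3 CPM (SD, n = 4), and was not called (0.33, adjusted p by edgeR = 0.143).

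Chaperones that fold MPO in the endoplasmic reticulum had negative log2 fold changes in all 9 genes, where 3795 of the 7597 genes tested were above 0. Of the 9, 2 were lower, where 3.19% of all genes tested were lower. CALR, the gene of calreticulin, changed by -0.22 (SE 0.06, adjusted p by edgeR = 0.0434), a call lost in each of the 8 fits without 1 library, and PDIA3 by -0.37 (SE 0.08, adjusted p by edgeR = 0.0208), kept in 4 of the 8 and lost without replicate 1 or 2 of shPTBP1 or replicate 2 or 4 of shSCR (0.0504 to 0.0729). Of the 7 alternative analyses, 4 called CALR and 6 called PDIA3. PDIA6 was not called (-0.06). Among genes of the tetraspanin and lysosomal membrane group, LAMP2 was higher (0.29, SE 0.06, adjusted p by edgeR = 0.0168) and CD37 was not called (0.03). The LAMP2 call held in 5 of 8 fits and was lost without replicate 3 or 4 of shPTBP1 or replicate 4 of shSCR (adjusted p by edgeR 0.0566 to 0.0583).

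**Figure D4:**
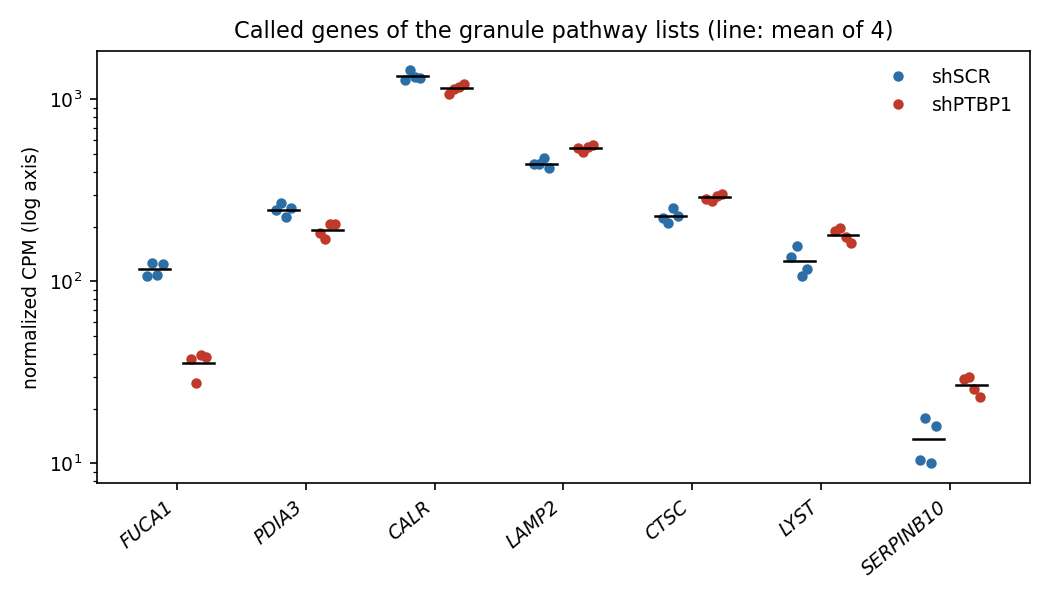
Normalized CPM (log axis) in each of the 8 libraries of 7 of the 8 called genes from the lists of genes that act with the granule proteins, shSCR in blue and shPTBP1 in red, with the mean of 4 as a line. FUCA1, PDIA3 and CALR are lower and LAMP2, CTSC, LYST and SERPINB10 higher in shPTBP1. None of the 7 overlaps between the groups, where 12.7% of all genes tested did not. The 7 are drawn because they were called in these same libraries, so the lack of overlap adds no support to the calls.

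Other azurophil contents had few or no counts. The defensin genes DEFA1, DEFA1B and DEFA3 were at 0 in all libraries, but they are near-identical copies, and reads that fit several copies would not pass the authors' filter on mapping quality, so their expression is uncertain. BPI and PRSS57 had 1 count each, and DEFA4 had 9.39 ± 2.79 CPM in shPTBP1 and 4.50 ± 2.82 in shSCR (SD, n = 4) with an edgeR adjusted p of 0.181. Of 17 genes of specific and gelatinase granules, which form later, 7 were at 0, among them LTF and MMP8, and 3 were tested. CHI3L1 (0.03) and CYBA (-0.17), the most abundant of them, were not called. Of 10 genes of eosinophil and mast cell granules 7 were at 0. RNASE2, a ribonuclease, was at 1623 ± 38.9 CPM in shPTBP1 and 1411 ± 138 in shSCR (SD, n = 4), with a log2 change of 0.20 (adjusted p by edgeR = 0.110), and RNASE3 changed by 0.36 (adjusted p by edgeR = 0.284). DESeq2 called 1 gene of this list and edgeR none, with 1 at an unadjusted p under 0.05. Of cytotoxic granule genes only NKG7 could be tested (-0.40, adjusted p by edgeR = 0.469).

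None of the regulators of granule genes that could be tested was called. Of 12 regulators 7 were tested, and edgeR, DESeq2 and limma-voom called 0 of them, with 0 at an unadjusted p under 0.05. The other 5, among them SPI1, RUNX1 and CEBPE, did not reach the count minimum, so whether they changed is not known. CEBPA had a log2 change of 0.10 and SATB1 of -0.12. All 10 genes of heme synthesis, which MPO needs for its prosthetic group, were tested with 0 called by the same tools and 0 at an unadjusted p under 0.05, with UROD at 0.06. Of 14 genes that build the glycosaminoglycan chains of serglycin 7 were tested and none was called by these tools, with 3 at an unadjusted p under 0.05. B3GALT6 changed by 0.30 (adjusted p by edgeR = 0.193) and B3GAT3 by -0.07.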

How the data were processed

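RNA of 4 shPTBP1 and 4 shSCR samples of MOLM-13, grouped by the sample labels, was sequenced by the authors from SQK-PCS109 and SQK-PBK004 cDNA libraries. The authors aligned the reads to hg38 with minimap2, kept high mapping qualities and deposited whole-number counts per transcript from StringTie (versions not given in the sources used here). A second deposited table of normalized values was not used here. Transcripts were joined to GENCODE version 44, which held 252562 of 254070, and summed per gene. Genes were tested with edgeR 4.0.16 (TMM, filterByExpr with a minimum count of 10, quasi-likelihood test, Benjamini-Hochberg over all 7597 genes tested), and isoforms with diffSpliceDGE. DESeq2 1.42.0, limma 3.58.1, other filters and left-out libraries were the alternatives. CPM values are TMM-normalized. The tests were checked on simulated counts. The simulated data, not the tests, were made easier after a first run recovered fewer changed genes, and even then most of the smaller changes put in, over genes of all levels, were missed, so a gene that was not called may have changed. The labels call the samples biological replicates without naming their source, so p-values measure the spread between these libraries, which may in part be technical. PCR cDNA counts are not independent molecules.

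The members and lists were chosen with earlier results of these data known. Named are all 10 members and PTBP1, the called genes and the 2 most abundant tested genes of each list, and tested genes within 100 kb of the chromosome 19 row. Of these, 2 list genes that enter the counts are not reported here by name. SPI1, CSF2RA and the other genes given at or near 0 were named after their values were seen, and so was RUNX1. The motifs, the promoters and splice sites printed and the pair ratios were likewise chosen after counts or sequences had been seen. Counts are summed without regard to how reads shared by isoforms were split upstream.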

Additional observations from a re-analysis of the deposited data

Results flagged for a closer look

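In groups of 4 libraries, a library far from the other 3 by Dixon's ratio was looked for in 54 groups of values, of which about 1 in 20 is marked by chance. MPO was at 16.0 CPM in shPTBP1 replicate 4, with the others at 10.6 to 11.4 CPM. AZU1-201 made up 99.0% of AZU1 counts in shSCR replicate 2, with the others at 99.5% to 99.6%, and AZU1-202 correspondingly made up 0.971%, with the others at 0.447% to 0.489%.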

How the results depend on the processing

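The calls of SRGN, CTSG, PRTN3 and CFD held in all 7 alternatives (DESeq2, limma-voom, DESeq2 size factors, no filter, a mean of at least 50 counts, the replicate block and thinned libraries) and in the 8 fits without 1 library. LYZ became called with no filter and without shPTBP1 replicate 1, giving 4 members higher. AZU1, CD63 and SERPINB1, none of them called, changed sign: AZU1 was -0.0063 at a mean of at least 50 counts, -0.013 in thinned libraries and -0.056 to 0.055 without 1 library (below 0 without shPTBP1 replicate 2), CD63 was -0.056 to 0.0060 without 1 library (above 0 without shSCR replicate 2), and SERPINB1 was -0.038 to 0.12 (below 0 without shPTBP1 replicate 2 and shSCR replicates 2 and 3). Over all genes, DESeq2 called 154 lower, and leaving out 1 library gave 107 to 190 lower and 77 to 168 higher with fewer samples. Of isoforms over all genes, limma diffSplice called 154, a limit of 20 points gave 28, and leaving out 1 library gave 39 to 55. The labels do not say whether same-numbered replicates were prepared together. Correlations of their deviations were -0.0328 to 0.00889, which does not settle it. With the replicate block 186 genes were lower, 137 higher and 50 isoforms called, with no call among the members changed. The share of counts on the members was 1.16 times that of shSCR, 1.196 with TMM scaling and 1.15 to 1.17 without 1 library. Depth limits MPO, SERPINB1 and the lesser CFD isoforms.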

Other observations

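Some transcripts had counts in some libraries and few or none in others of the same group, with no group difference called. SRGN-202 had 0 counts in shSCR replicates 3 and 4 and 61 to 121 elsewhere. ARID3A had 0 in shPTBP1 replicate 4 and in shSCR replicates 1 and 3. RUNX1, a regulator of granule genes that was below the count minimum of the test, had 3, 4, 80 and 4 counts in shPTBP1 and 8, 2, 5 and 5 in shSCR. The cause was not tested.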
